A study of Mus musculus with 4 samples.

Results

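The pigment cell genes described here were 8 genes chosen by symbol, Pmel, Tyrp1, Dct, Tyr, Mitf, Mlana, Slc45a2 and Oca2, of the 19465 genes listed for every library. Each of the 8 was present once in the gene list and each passed the filter on low counts in every comparison of zones and stages. Their levels were read in 6357 tissue spots of coronal sections through the heads of wild-type C57BL/6J mouse embryos, cut at the level of the palate and fixed in formalin and embedded in paraffin. The embryos were of embryonic day (E) 14.5 or E15.5, carried no transgene or deletion and received no treatment. The measurement was Visium, which counts unique molecular identifiers (UMIs, each standing for 1 captured molecule) on an array of barcoded spots under the tissue, and a spot can hold several cells of different types.

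Pigment is made in the embryo by cells of separate origins. The retinal pigment epithelium is a single sheet that grows from the outer layer of the optic cup and lies against the neural retina. Melanoblasts leave the neural crest, migrate under the skin, and later fill the epidermis and hair follicles as melanocytes. Both build the melanosome, the organelle in which melanin is laid down, and both depend on the transcription factor MITF. Dct is known from the embryonic forebrain as well, which makes no pigment.

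The samples were 4 capture areas, each a single library and 2 for each stage. By the labels, replicate 1 of each stage was 1 section in an area of its own, and replicates 2, 3 and 4 of each stage shared an area with 3 sections. The areas held 989 to 2310 tissue spots and 15438992 to 109127953 UMIs. The E14.5 replicate 1 area stood apart in depth, with a median of 6752 UMIs per spot against 45058.5 to 64051 in the other areas, and 1 of the 3 sections of the other E14.5 area was also shallow, with a median of 10037.5. Pairs of areas shared 540 to 1388 tissue barcodes, since every array carries the same set. Sums over the spots of an area were the unit of every test, and the labels do not say whether embryos came from separate litters, so that p-values measure the spread between these areas, which may be partly technical.

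Spots were placed in zones by genes that are not among the 8. Retina spots had 100 or more CPM (UMIs of a gene per 1000000 UMIs) summed over 6 neural retina genes (Rax, Six6 and Atoh7 among them). At least 3 of the 6 had to be counted, in groups of at least 5 touching spots. The eye zone held the retina spots and all spots within 2 spot spacings of them. Lens spots, with 10000 or more CPM of lens genes, were also placed in it. The epidermal zone held spots outside the eye zone with 1000 CPM or more of the suprabasal keratinocyte genes Krt10, Krt1, Krtdap, Sbsn and Lor. The eye zone took in 2293 spots, the epidermal zone 709 and the rest of the head 3355. Retina genes spread well past the eye at this threshold, so a retina core of 405 spots at 1000 CPM or more was added after the data had been seen. The core is the start of all distances given here. The plot of both genes over the arrays shows these cores.

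**Figure D1:**
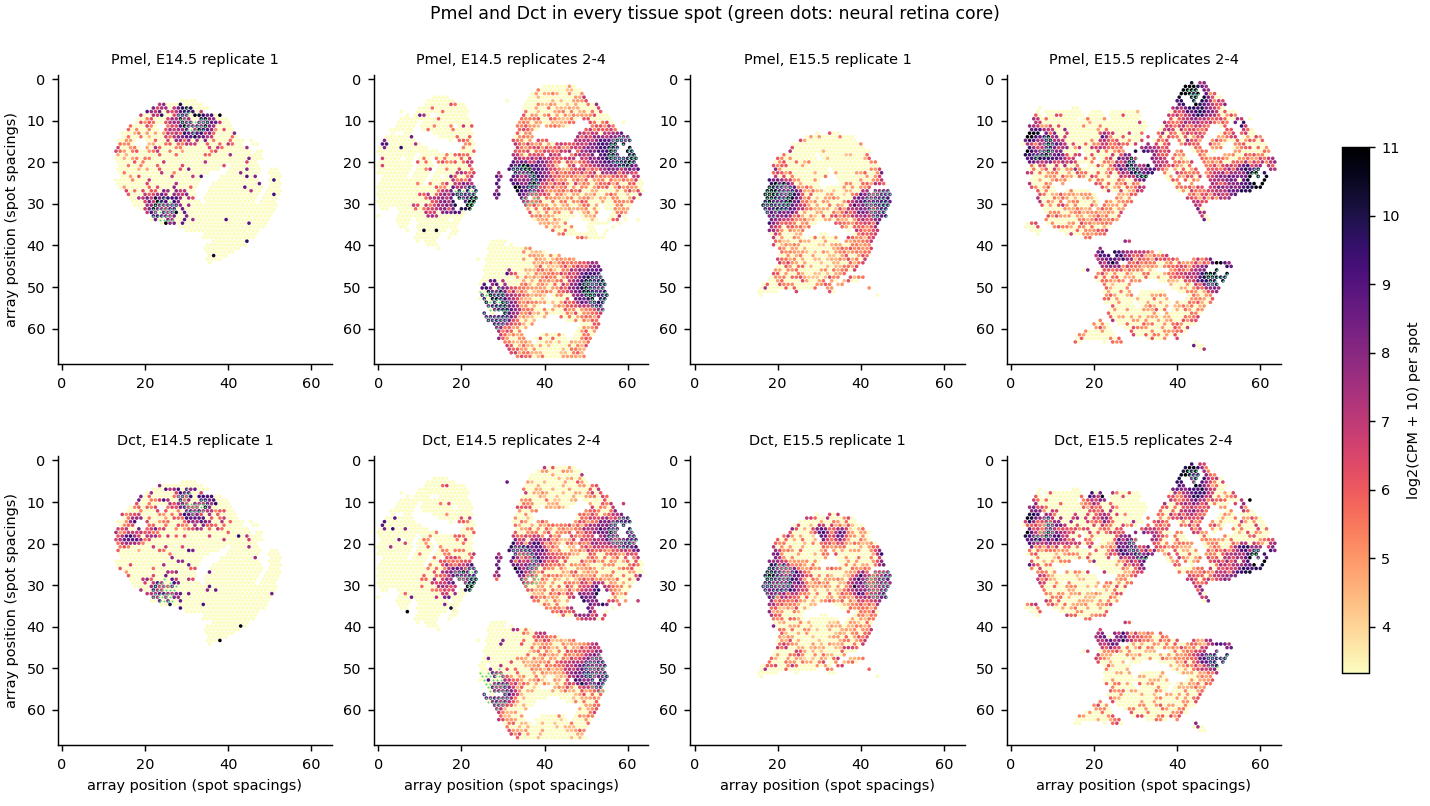
Each point is a tissue spot at its array position in spot spacings, coloured by log2(CPM + 10) of Pmel (top) or Dct (bottom) in the 4 capture areas, and green dots mark the 405 spots of the neural retina core. Pmel is darkest on and around the green dots in every area, and Dct also has dark spots away from them.

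TYRP1, tyrosinase and DCT are the related enzymes of melanin synthesis, and the letters TCATGTG, known as the M-box, are the sequence at which MITF was first described to bind in their promoters. The stretch around each TCATGTG was read from the RefSeq promoters of GRCm38.p6 for these genes, within the 250 bases before the gene start and on both strands. The TCATGTG, or its reverse complement CACATGA, is in capitals and each stretch is written 5′ to 3′ on the strand of the gene.
Tyr, chr7:87493517-87493545, minus strand, 22 bases before the start: gaaaaagttagTCATGTGctttgcagaag
Tyrp1, chr4:80834155-80834183, plus strand, 47 bases before the RefSeq start: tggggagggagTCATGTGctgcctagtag
Dct, chr14:118052380-118052408, minus strand, 151 bases before the start: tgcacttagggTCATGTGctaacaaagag
Dct, chr14:118052461-118052489, minus strand, 232 bases before the start: cttggctgggaCACATGAgcccaataaag
Of all 32851 promoters of the same length, 1068 (3.25%) held TCATGTG on either strand, and the shorter CATGTG inside it was in 12.3%. The Oca2 promoter held the shorter form alone, as CACATG, 186 bases before its start. The 3 promoters listed for Mitf held neither form. Promoters of Pmel, Mlana and Slc45a2 were not read here. The RefSeq start of Tyrp1 lies downstream of the GENCODE start given with the gene below, so that its stretch is inside the GENCODE gene. A match of letters is a description and was not tested as a binding site.

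All 8 genes were higher in the eye zone than in the rest of the head. The rise was largest for Tyrp1, Pmel and Tyr, at 19.8-fold, 17.8-fold and 14.5-fold, and smallest for Dct and Mitf, at 5.06-fold and 2.31-fold. Of 14698 genes tested over the 12 sums of 3 zones in 4 areas, 7.97% differed, with 5.25% higher and 2.73% lower in the eye zone (edgeR quasi-likelihood test with the area as a block, Benjamini-Hochberg adjusted p under 0.1), beside 8 of 8 pigment cell genes. The median log2 difference was 3.51 over the 8 genes and -0.00 over all genes tested. The share of all genes whose CPM did not overlap between zones was not counted. Lack of overlap between zones is therefore given below as a description of single genes. In sums over spots, more pigment cells in a spot and more RNA in each cell cannot be told apart.

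Pmel encodes the protein that forms the amyloid fibrils of the melanosome matrix and lies at chromosome 10, 128704195 to 128720238, plus strand (GRCm38, GENCODE M21, as for all positions below). Its level in the eye zone was 256 and 244 CPM in the replicate 1 and the replicate 2 to 4 area of E14.5, and 299 and 301 CPM in those of E15.5. In the rest of the head it was 16, 13.8, 9.07 and 25.3 CPM in the same order. The zones did not overlap in any area. The difference was 4.16 ± 0.21 on the log2 scale (SE, edgeR, Benjamini-Hochberg adjusted p = 5.76e-06, n = 4 areas). In the retina core itself Pmel reached 550, 751, 691 and 1075 CPM.

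Tyrosinase, encoded by Tyr (chromosome 7, 87424771 to 87493512, minus strand), catalyses the first and limiting step of melanin synthesis. Tyr stood at 35.5, 27.3, 39.4 and 46.1 CPM in the eye zone and at 2.27, 1.77, 2.07 and 4.13 CPM in the rest, in the same order of areas. Every eye zone was above every rest, by 3.86 ± 0.14 on the log2 scale, the difference with the smallest error of the 8 (adjusted p = 7.12e-07, edgeR, Benjamini-Hochberg). Tyrp1 (chromosome 4, 80834123 to 80851719, plus strand), whose product oxidises a later intermediate, was at 23.3, 14.7, 27.4 and 27.0 CPM in the eye zone against 1.36, 0.723, 0.619 and 2.13 CPM. The groups again did not overlap, and the difference was 4.31 ± 0.25 (adjusted p = 1.13e-05).

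Dct, the tautomerase that acts between them (chromosome 14, 118012790 to 118052244, minus strand), was at 131, 121, 178 and 189 CPM in the eye zone. In the rest it was at 55.8, 28.0, 26.4 and 18.5 CPM, so that the zones did not overlap but stood closer than for Tyr and Tyrp1. The log2 difference was 2.34 ± 0.29 (edgeR, Benjamini-Hochberg adjusted p = 0.00109). Where Dct in the rest came from is described below.

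Mitf (chromosome 6, 97807052 to 98021349, plus strand) encodes the transcription factor of the pigment lineages and is also used by mast cells and osteoclasts. Its eye zone levels of 18.4, 15.6, 26.7 and 18.8 CPM lay above the 6.46, 8.98, 8.50 and 9.22 CPM of the rest without overlap. The difference of 1.21 ± 0.16 was the smallest of the 8 (edgeR, Benjamini-Hochberg adjusted p = 0.00196), and it was not called when the test asked for more than a log2 change of 1 (adjusted p = 1). Under the other alternatives it lay between 1.04 and 1.74.

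The low genes of the list followed the same order of zones. Slc45a2 (chromosome 15, 11000721 to 11029233, plus strand) and Oca2 (chromosome 7, 56239760 to 56536518, plus strand) encode melanosome membrane proteins that help set the pH in which tyrosinase works. Slc45a2 had 4.41, 3.49, 5.0 and 5.90 CPM in the eye zone against 0.455, 0.304, 0.296 and 0.654 CPM in the rest. Oca2 had 4.66, 7.36, 9.26 and 11.7 CPM against 0.273, 1.14, 0.350 and 1.23 CPM. Mlana (chromosome 19, 29697824 to 29708634, plus strand), a small melanosome protein, had 3.19, 3.33, 4.26 and 5.50 CPM against 0.455, 0.343, 0.161 and 0.491 CPM. None of the 3 overlapped between these zones, and their log2 differences were 3.45 ± 0.25, 3.44 ± 0.34 and 3.56 ± 0.26, with adjusted p = 4.25e-05, 0.000249 and 4.25e-05 (edgeR, Benjamini-Hochberg). They rested on 583, 1105 and 508 UMIs in all tissue spots, against 32513 for Pmel.

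**Figure D2:**
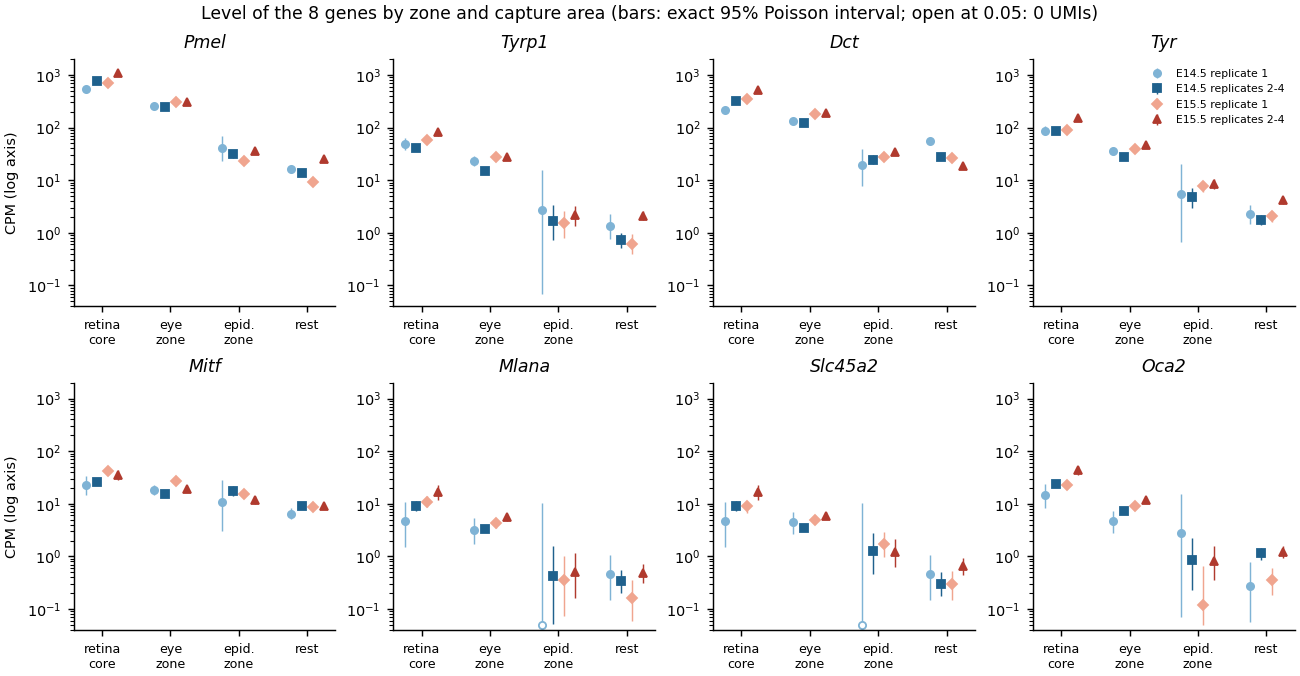
CPM on a log axis of each gene in the retina core, the eye zone, the epidermal zone (epid.) and the rest, with 1 point per capture area, exact 95% Poisson intervals that cover counting error alone, and open points at 0.05 for 0 UMIs. All 8 genes fall from the core to the eye zone to the rest in every area, and the epidermal zone lies above the rest in every area for Pmel, Tyr, Tyrp1 and Mitf. In E14.5 replicate 1 the epidermal points of Tyr, Tyrp1 and Mitf rest on 2, 1 and 4 UMIs.

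The eye zone held 38.4% of all UMIs and 91.0% of those of Tyrp1, 90.2% of Pmel, 87.6% of Mlana, 87.0% of Tyr, 86.4% of Oca2, 83.4% of Slc45a2, 77.9% of Dct and 55.3% of Mitf. The tighter region of the core and its first 2 rings, with 14.9% of all UMIs, held 70.4% of Pmel and 33.4% of Mitf. For Dct the areas differed, with 46.2% of its UMIs in the eye zone of E14.5 replicate 1 and 76.0% to 82.2% in the other areas.

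Of the 100 spots with the highest CPM of Pmel, 93 lay within 2 spacings of the core and 100 in the eye zone. The same count within 2 spacings was 86 for Tyrp1, 80 for Tyr, 79 for Oca2 and 74 for Dct, but 51 for Mitf, against 15% of all tissue spots. Pmel reached 5923 CPM in its highest spot, with 168 of 28364 UMIs, which lay next to a core in the E15.5 area of replicates 2 to 4 and was also the highest spot of Tyrp1 and Tyr. The highest spots of Mitf and Slc45a2 rested on 1 UMI each, in spots of 1116 and 1183 UMIs, so that shallow spots lead their order.

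Around single eyes the levels were uneven. The cores formed 14 separate groups of spots, of 5 to 51 spots, and Pmel ranged from 366 to 2374 CPM between them with a median of 805. The 2 eyes of the E15.5 replicate 1 section held 923 and 366 CPM of Pmel, 478 and 166 CPM of Dct and 52.2 and 28.8 CPM of Mitf. The retina genes of the same eyes stood the other way, at 2433 and 2960 CPM. Lens genes, at 33.0 and 8131 CPM, and hemoglobin genes, at 743 and 257 CPM, also differed between them, and their part in the difference was not tested. Of the 6 sections with 2 eyes, Pmel was higher in the eye with the lower retina level in 3 and in the eye with the higher retina level in the other 3.

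In 12 of the 14 groups the core had interior spots, with every neighbour in the core. Edge spots held more Dct than the interior in 9 of the 12 and more Mitf in 9 of the 12. Edge spots held more Slc45a2 in 8 groups, more Pmel, Tyr and Tyrp1 in 7, more Mlana in 6 and more Oca2 in 5. In the 8 groups with at least 5 interior spots, Dct and Mitf were higher at the edge in all 8, with median ratios of 1.43 and 1.37, and in 3 of the 4 groups with fewer they were lower. The retina genes, which the core was cut from, were higher at the edge in 2 of the 12. Edge and interior spots touch, and this is given as a description without a test.

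At 3 spacings from the core all 8 genes were below their core level in every area, after falls at different rates. Slc45a2 had not fallen at 1 and 2 spacings, with means of 106% and 101% of its core level. Pmel fell from its core level to 55.6% at 1 spacing, 35.1% at 2, 17.9% at 3, 10.2% at 4 and 5.43% at 5 to 6 spacings (means over 4 areas). At 2 spacings the areas ranged from 25.9% to 49.8%, and the E15.5 area of replicates 2 to 4 kept the highest share. Tyr and Tyrp1 ran alongside, at 34.2% and 45.5% at 2 spacings. The retina genes fell faster, to 24.5% at 1 spacing and 11.4% at 2. The core was cut by these same genes, so a steep fall at its edge was set in part by that cut. Pmel per retina UMI was higher around the core than in it, a ratio that the same cut raises. In every area there were 18.4 to 49.8 UMIs of Pmel for each 100 UMIs of retina genes in the core and 58.2 to 163 at 1 to 3 spacings. Pmel did not reach 0 away from the eye. It levelled at 2.38% of its core level at 10 to 14 spacings, and the retina genes were at 1.47%. Whether those counts are RNA that spread from the eye was not tested.

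From 3 spacings on, Mitf kept the highest share of its core level of the 8 genes. It was at 82.1% of its core level at 2 spacings and 43.6% at 4, and from 5 spacings on it stayed between 26.6% and 34.3%. Its level over 14 spacings from any core was 11.1, 7.93, 12.3 and 10.6 CPM. Dct fell as Pmel did to 5.46% at 7 to 9 spacings and then rose to 19.6% at 10 to 14. That rise was from 13.3 to 101 CPM in E14.5 replicate 1, from 18.7 to 41.8 CPM in the other E14.5 area and from 12.2 to 44.6 CPM in E15.5 replicate 1, while E15.5 replicates 2 to 4 went from 33.0 to 28.3 CPM. The rise was thus seen in 3 of 4 areas.

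**Figure D3:**
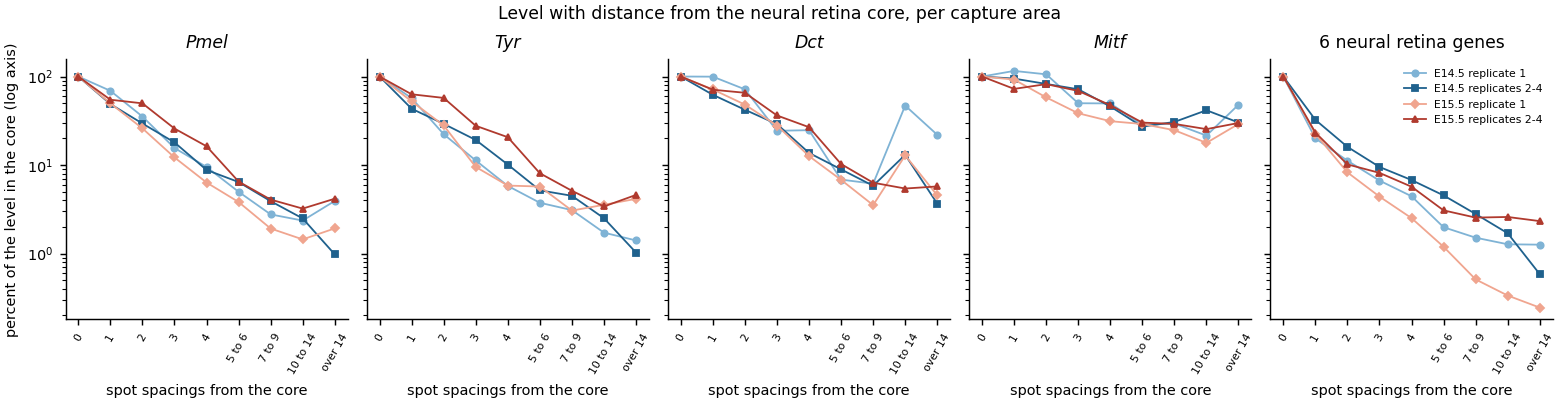
Level of Pmel, Tyr, Dct, Mitf and of 6 neural retina genes summed, as a percent of the level in the retina core on a log axis, against the distance in spot spacings, with 1 line per capture area. Pmel and Tyr fall to 6.5% and 8.075% of the core level or less at 5 to 6 spacings. Mitf levels off near 30%, and Dct rises again at 10 to 14 spacings in 3 of the 4 areas.

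In the epidermal zone 4 of the 8 genes were higher than in the rest of the head. These were Slc45a2, Tyr, Pmel and Mitf, at 3.19-fold, 2.67-fold, 1.96-fold and 1.67-fold. No gene of the 8 was lower. The background was high here, since 59.5% of 14698 genes differed between these zones and 28.5% were higher in the epidermal zone, so a share of 4 in 8 says little of the list as such. Tyrp1, Mlana, Dct and Oca2 did not pass the test, with log2 differences of 0.60 ± 0.38, 0.22 ± 0.48, -0.04 ± 0.32 and -0.55 ± 0.60 and adjusted p from 0.201 to 0.935 (edgeR, Benjamini-Hochberg).

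Pmel stood at 41.3, 31.7, 23.3 and 35.1 CPM in the epidermal zone of the 4 areas, in the order used above. Each value was above the rest of its own area, though the 23.3 CPM of E15.5 replicate 1 lay under the 25.3 CPM in the rest of the other E15.5 area. The difference was 0.97 ± 0.22 on the log2 scale (edgeR, Benjamini-Hochberg adjusted p = 0.00437).

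Tyr was at 5.51, 4.71, 7.59 and 8.43 CPM there, and every epidermal value was above every value of the rest, though the first rested on 2 UMIs alone. Its log2 difference of 1.42 ± 0.17 had the lowest adjusted p of the 8, 0.000109 (edgeR, Benjamini-Hochberg), and Tyr alone was called when more than a log2 change of 1 was asked. Slc45a2 had 0 UMIs in the epidermal zone of E14.5 replicate 1, where 3 UMIs would be 8.26 CPM of its 363105 UMIs, and 1.28, 1.75 and 1.22 CPM in the others. Those 3 areas were all above the rest, and the fitted difference of 1.67 ± 0.35 rested on 33 epidermal UMIs in all (adjusted p = 0.00296).

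Mitf was at 11, 17.3, 15.5 and 11.8 CPM in the epidermal zone, though the first value rested on 4 UMIs alone. As counted, the values lay above the rest in all areas without overlap, by 0.74 ± 0.19 (edgeR, Benjamini-Hochberg adjusted p = 0.00751). Markers of mast cells were also higher in the epidermal zone than in the rest. They did not follow Mitf into the eye zone, where their range overlapped that of the rest and that of Mitf did not. All 5 mast cell genes had UMIs, and their sum (Cpa3, Mcpt4, Tpsb2, Cma1 and Ms4a2) was 669 to 1050 CPM in the epidermal zone against 60.9 to 164 CPM in the rest and 77.5 to 185 CPM in the eye zone. Macrophage genes stood at 237 to 326 CPM against 111 to 178 CPM, and osteoclast genes at 176 to 1000 against 123 to 543 CPM, with all 5 of 5 counted in each. The part of these cells in the epidermal level of Mitf was not tested.

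The same 4 genes were called away from the eyes. In that fit 21.3% of 13996 genes were higher in the epidermal zone and 23.8% lower, so the count says little of the list as such. With all spots within 6 spacings of the core left out of both zones, the epidermal zone held 38.4, 28.2, 23.1 and 33.7 CPM of Pmel and 3.20, 5.03, 7.64 and 8.12 CPM of Tyr. The choice of this distance was made after the data had been seen. Per spot, 46.4% of these epidermal spots had a UMI of Pmel (median of 31786.5 UMIs), against 42.5% of muscle spots (median of 62342), a tissue that makes no pigment. With each spot thinned to 5000 UMIs the shares were 13.6% (exact 95% binomial interval 10.8 to 16.9) and 6.50% (4.21 to 9.52), with 153 epidermal and 88 muscle spots too shallow to enter. For Tyr they were 4.66% (3.01 to 6.85) and 1.08% (0.296 to 2.75). For Dct, which the zone test did not call, they were 11.7% (9.01 to 14.7) and 5.15% (3.13 to 7.92). For Mitf they were 7.57% (5.44 to 10.2) and 5.15% (3.13 to 7.92). The spots are pooled over areas and are not replicates, and the spots left out as too shallow limit what these shares show. With 1000 UMIs per spot the shares of Pmel were 2.90% (1.73 to 4.55) and 1.86% (0.805 to 3.62). In the retina core, thinned in the same way, 89.9% of spots had a UMI of Pmel and 40.7% one of Tyr.

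**Figure D4:**
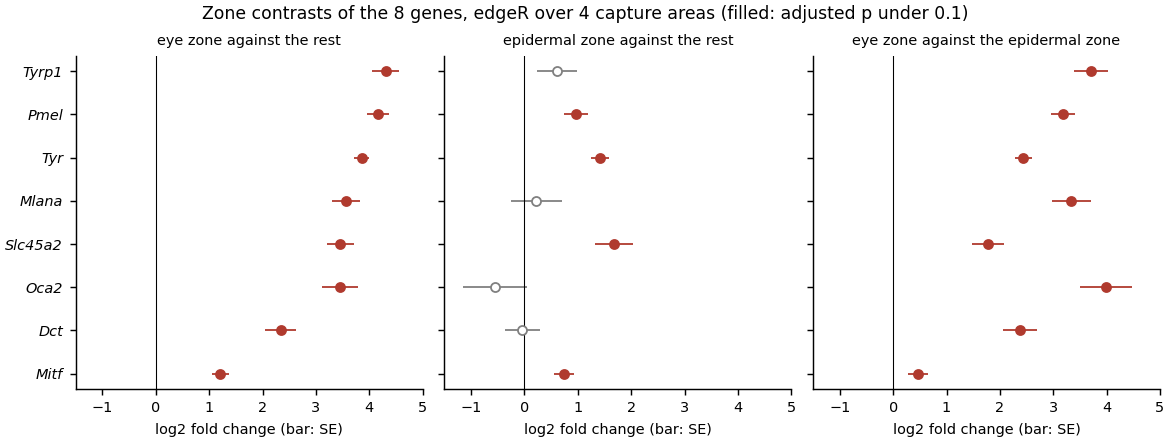
Log2 fold changes with their SE for the 8 genes in 3 zone contrasts, from edgeR over 4 capture areas, with filled points for adjusted p under 0.1. All 8 are to the right of 0 for the eye zone against the rest and against the epidermal zone, and 4 of 8 are filled for the epidermal zone against the rest.

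Set directly against the epidermal zone, the eye zone was higher for all 8 genes, where 50.9% of all genes differed and 26.9% were higher in the eye zone. The log2 difference was 3.99 ± 0.49 for Oca2, 3.70 ± 0.32 for Tyrp1, 3.34 ± 0.37 for Mlana and 3.19 ± 0.22 for Pmel. It was smaller for Tyr at 2.44 ± 0.16, Dct at 2.38 ± 0.31 and Slc45a2 at 1.78 ± 0.30. Mitf was at 0.47 ± 0.18 (edgeR, Benjamini-Hochberg adjusted p = 0.0619) with overlapping groups, since the 17.3 CPM of the epidermal zone of one E14.5 area lay above the 15.6 CPM of its eye zone. That call was lost without E14.5 replicate 1, E15.5 replicate 1 or E15.5 replicates 2 to 4, with adjusted p of 0.141, 0.334 and 0.227, and held without E14.5 replicates 2 to 4. Of the 105 alternative results for the 8 genes in this contrast, 7 lost a call, and each of the 7 was for Mitf. Its log2 difference lay between 0.28 and 1.05 under the alternatives.

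The balance among the 8 genes in the retina core differed from that farther away. For each 100 UMIs of Pmel the retina core held 4.20, 3.49, 6.14 and 3.30 UMIs of Mitf in the 4 areas. In epidermal spots over 6 spacings away the same ratio was 33.3, 61.6, 66.5 and 34.7, above the core in 4 of 4 areas. In the rest of the head over 6 spacings away it was higher still, at 43.1, 68, 94.4 and 37.1, so that a high ratio was not particular to the skin. Tyr was at 11.4 to 16 UMIs for each 100 of Pmel in the core and at 17.9, 33.0 and 24.1 in the epidermal spots of the 3 deeper areas. In E14.5 replicate 1 it was at 8.33, a ratio of 1 UMI to 12.

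Dct had a second set of high counts in spots led by genes of the developing brain. The fixed rule for tissues gave spots away from the eye and the epidermis to the marker list with the largest excess, and the highest Dct levels were in spots led by Fabp7, a gene of embryonic radial glia that stood in the glia list used for nerves. The list of radial glia and forebrain progenitor genes (Pax6, Hes5, Vim, Sox2, Slc1a3 and Eomes) was then replaced by Fabp7, Hes5, Pax6 and Eomes. Fabp7 was taken out of the list used for nerves, and Vim, Sox2 and Slc1a3 were dropped. This change was made after the data had been seen and followed from where Dct was high. The Dct levels of the replaced list are thus a description of spots chosen in part by Dct. With it, 370 spots over 6 spacings from the core were led by the replaced list. Dct there was at 83.8 and 109 CPM in E14.5 replicate 1 and replicates 2 to 4, and at 104 and 79.8 CPM in those of E15.5.

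Pmel was at 13.9, 15.8, 1.25 and 12.8 CPM and Tyr at 1.53, 4.12, 0.712 and 1.83 CPM in the same spots. Mitf was at 4.13, 2.06 and 2.14 CPM and at 0 UMIs in the last area, where 3 UMIs would be 2.75 CPM. Muscle spots held 5.98, 5.21, 7.16 and 12.3 CPM of Dct and 12, 12.9, 7.76 and 19.4 CPM of Pmel. Dct was thus above muscle in all 4 areas, though the list was replaced because of where Dct was high, so this is no separate support. The 95% Poisson intervals of Pmel in these spots and in muscle overlapped in 3 areas, and in E15.5 replicate 1 Pmel was below muscle. Mitf was below its muscle level in all 4, although muscle of E14.5 replicate 1 held 2 UMIs of it. Spots are not replicates, and these levels are given with no test.

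Spots led by the choroid plexus gene Ttr held 60.3 CPM of Dct in the E14.5 area of replicates 2 to 4, from 1041 UMIs, and 11.1 and 14 CPM in the E15.5 areas. In that E14.5 area Ttr-led spots outnumbered those led by forebrain genes, with 262 spots against 89. For Pmel the level in Ttr-led spots was 14.1, 12.5 and 12.5 CPM in the 3 deeper areas.

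**Figure D5:**
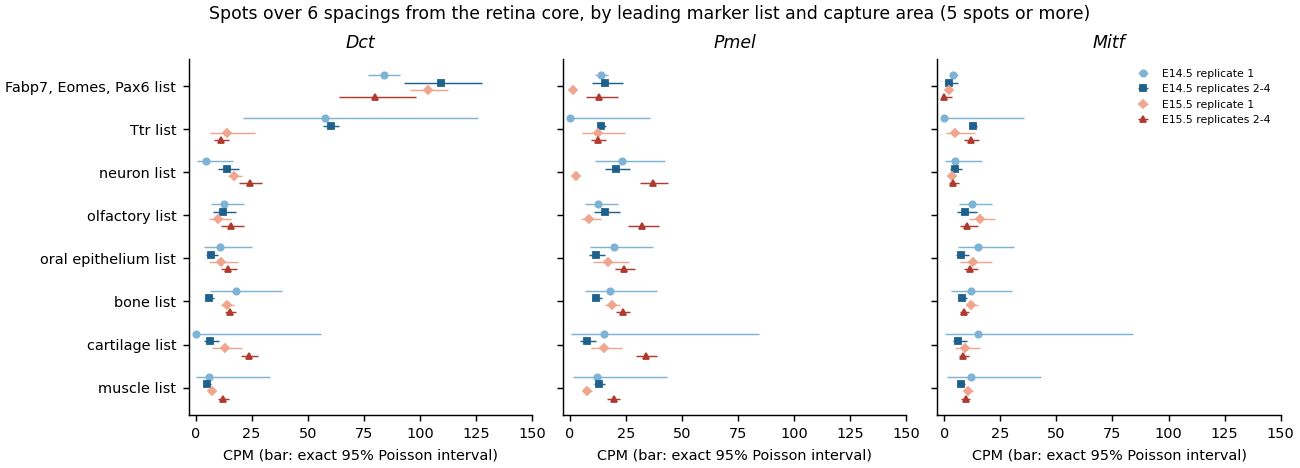
CPM of Dct, Pmel and Mitf with exact 95% Poisson intervals in spots over 6 spacings from the retina core, by the marker list that led the spot and by capture area, for sets of 5 spots or more. Dct stands at 79.8 to 109 CPM in spots of the Fabp7, Eomes and Pax6 list in all 4 areas, where Pmel is at 1.25 to 15.8 CPM and Mitf at 4.13 CPM or less. That list was set after the levels of Dct had been seen.

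The ratio of Dct to Pmel within a library was highest in the rest of the head in 3 of the 4 areas. In the retina core it was 0.39 to 0.50 UMIs of Dct for each UMI of Pmel in all 4 areas. In the rest of the head over 6 spacings away it was 4.28, 2.19, 3.23 and 0.74, so that the area of E15.5 replicates 2 to 4, which held the fewest spots led by forebrain genes, stayed below 1. In epidermal spots it was 0.42, 0.78, 1.13 and 0.96.

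Genes of the eye were among those whose levels across spots were most like the sum of the 8. The mean over 4 areas of the correlation across spots of log2(CPM + 10) was 0.640 for Atoh7, 0.617 for Rax, 0.581 for Hmx1, 0.566 for Six6, 0.551 for Fgf15, 0.533 for Dkk3, 0.523 for Trpm1, 0.518 for Sncg and 0.508 for Mgarp, out of 13995 genes ranked. Spots of an area share a library and differ in depth, and Atoh7, Rax and Six6 were among the genes that set the eye zone. Trpm1, an ion channel of retinal bipolar cells and melanocytes, was the only gene of the fixed melanosome list among those named. Among the 8, the correlation with the sum of the other 7 was highest for Pmel at 0.655, Dct at 0.619 and Tyr at 0.589, and lowest for Slc45a2 at 0.335 and Mlana at 0.329, which had the fewest UMIs. Mitf stood next to these at 0.339, though it had more UMIs than either.

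Over 6 spacings from the core, the genes most like Dct included Eomes, Neurog2, Lhx2, Slc30a10, Emx1, Fezf2, Sox3, Paqr8 and Pax6, with mean correlations of 0.293 to 0.340 in 3990 spots. Eomes, Neurog2, Emx1, Fezf2 and Pax6 are known genes of the developing cerebral cortex. Dct correlated with the sum of the other 7 pigment cell genes at 0.225 in the same spots, against 0.619 over all spots. These correlations are weak and are given as a description of 4 areas.

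No difference between the stages passed the test for any of the 8 genes. Over whole sections, edgeR called 0 of 15609 genes at an adjusted p under 0.1 (0% of genes), with 930 at an unadjusted p under 0.05 and 28 called by DESeq2. The log2 difference of E15.5 over E14.5 ran from 0.00 ± 0.21 for Dct to 0.38 ± 0.31 for Tyrp1. Pmel was at 80.0 and 124 CPM in the E14.5 areas and at 104 and 120 CPM in the E15.5 areas, Dct at 74.8 and 71.8 and at 75.2 and 78.2 CPM, and Mitf at 9.72 and 12.5 and at 15.2 and 12.8 CPM. Tyr was at 11.1 and 14.1 against 14.7 and 18.9 CPM, and Tyrp1 at 7.19 and 7.40 against 9.33 and 10.6 CPM. For 5 of the 8 genes, Dct, Mitf, Tyr, Tyrp1 and Slc45a2, the levels of the older stage were the higher ones without overlap, as they were for 24.9% of all genes tested, and the stages overlapped for Pmel, Mlana and Oca2.

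Within the eye zone all 8 log2 differences were above 0, from 0.24 ± 0.22 for Pmel to 0.70 ± 0.37 for Oca2, and none passed. The CPM of the 2 stages did not overlap there for any of the 8, with E15.5 higher, as for 18.5% of all genes tested. Here edgeR called 0 of 14607 genes (0%), with 598 at an unadjusted p under 0.05, and DESeq2 called 35, none of them among the 8. Dct came nearest, at 131 and 121 CPM in the E14.5 areas and 178 and 189 CPM in the E15.5 areas (0.52 ± 0.21, unadjusted p = 0.0347 and adjusted p = 1 by edgeR with Benjamini-Hochberg adjustment). With 2 areas against 2 the errors of the 8 differences in the eye zone were 0.21 to 0.40 on the log2 scale, and differences of that size could not be shown. The eye effect itself did not pass a test of its difference between stages for any of the 8 (edgeR, 0 of 14698 genes called and 192 at an unadjusted p under 0.05), and Dct had the largest such difference, 1.40 ± 0.36 (unadjusted p = 0.00431, adjusted p = 1).

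Other genes of pigment cells were read from 3 fixed lists. Of 25 further melanosome genes 24 were measured, and 7 were higher in the eye zone than in the rest and 0 lower, beside 5.25% higher and 2.73% lower among all genes, a background that holds for the lists that follow too. The 5 with the largest differences were Trpm1 at 3.46 ± 0.23, Slc24a5, a melanosome ion exchanger, at 3.43 ± 0.20, Gpnmb, a relative of Pmel, at 3.09 ± 0.28, Gpr143, a melanosome receptor, at 2.51 ± 0.34, and Bace2, which cleaves the Pmel protein, at 0.91 ± 0.15 (log2, edgeR, Benjamini-Hochberg adjusted p of 1.13e-05 to 0.00738). The median of the list was 0.18. The other called genes were Rab27a and Slc7a11.

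Of 15 regulators of melanocytes 12 were tested and 2 were higher in the eye zone. These were Sox10, a neural crest factor that acts upstream of Mitf, at 0.69 ± 0.16 (adjusted p = 0.0364), and Edn3, a ligand of melanoblasts, at 0.67 ± 0.17 (adjusted p = 0.0514). Kit, the receptor of the melanoblast survival factor, did not pass at 0.04 ± 0.16. Of 11 genes of the pigment epithelium 9 were tested and 4 were higher, Mfrp at 2.90 ± 0.47, Wfdc1 at 1.48 ± 0.30, Stra6, a vitamin A transporter, at 1.16 ± 0.11, and Rdh5, a retinol dehydrogenase, at 0.67 ± 0.12, with adjusted p of 0.000155 to 0.0210 (edgeR, Benjamini-Hochberg). Rgr, Best1, Lrat, Tfec and Rlbp1 did not pass, and Rpe65 and Otx2 did not pass the filter on low counts.

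In the epidermal zone 13 of 24 melanosome genes were higher than in the rest and 1, Myo5a, was lower, against the 28.5% higher and 31.0% lower of all genes. Slc7a11, a cystine transporter, was at 2.25 ± 0.20, and the melanosome trafficking genes Rab38, Mreg and Rab32 were at 2.09 ± 0.24, 1.61 ± 0.19 and 1.32 ± 0.16. Slc24a5 at 1.32 ± 0.25, Slc7a11 and Rab27a were higher in both zones than in the rest. Of the 12 regulators 8 were higher, with Tfap2a at 2.62 ± 0.26, Lef1 at 1.39 ± 0.13 and Kitl, the Kit ligand, at 1.11 ± 0.13, and 1, Sox9, was lower. Kit was at 0.38 ± 0.17 and Sox10 at 0.40 ± 0.18 (edgeR, Benjamini-Hochberg adjusted p = 0.0823 and 0.0877). Of 9 pigment epithelium genes Lrat and Tfec were higher, and Rlbp1 and Stra6 lower. Between eye and epidermal zone, 26.9% of all genes were higher and 24.0% lower in the eye. There the eye was higher for 6 and lower for 7 of 24 melanosome genes. The same counts were 1 and 6 of 12 regulators, and 5 and 2 of 9 pigment epithelium genes. No gene of the 3 lists passed either stage test, where 0% of all genes did. Of the regulators, Tfap2a, Lef1 and Kitl are also genes of keratinocytes or hair placodes, and the lists were chosen with earlier results of these data known.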

How the data were processed

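For each capture area the authors deposited a matrix of raw UMI counts and the array position of its spots. By the headers of these matrices, the 2 areas of replicate 1 came from Space Ranger 1.3.1, and the areas of replicates 2 to 4 from version 2.0.0. The submitters' processing notes name mm10. No normalization was applied, the probe set is not given in the sources used here, and levels of different genes were not compared. The members and all gene lists were chosen with earlier results of these data known.

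Spots on tissue with at least 1 UMI were used, which left out 19 barcodes off tissue. CPM is a gene's UMIs per 1000000 UMIs of the region. Intervals are exact 95% Poisson or binomial and cover counting error alone. Zones are defined in the text above, and a zone of an area needed 5 spots. UMIs were summed per area and zone and tested with edgeR 4.0.16 in R 4.3.3 (quasi-likelihood test, TMM, filterByExpr, area as a block for zones), with Benjamini-Hochberg adjustment over all genes and a threshold of 0.1, after a trial on simulated data. Stages were compared 2 areas against 2. The standard error is the fold change over the square root of the F statistic. DESeq2 1.42.0, other thresholds, filters, scalings and units and each area left out were alternatives. Touching spots were joined into sections, which needed at least 100 spots. Tissue lists led a spot by log2(CPM + 10), with an excess of at least 1, and likeness was ranked for genes with at least 200 UMIs. All 8 members are named. Of other lists, every member was counted and the 5 with the largest called change in the eye against the rest were named, with others named after their values were seen. Some genes of the retina list and of the likeness rankings are not reported here.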

Additional observations from a re-analysis of the deposited data

Results flagged for a closer look

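Groups of 4 sections per stage were searched for a section far from the others, in 48 sets of gene, zone and stage, of which chance alone flags about 1 in 20. One was found. Dct in the eye zone of the E15.5 section C was 209 CPM against 172 to 178 CPM in the other 3 E15.5 sections. Section C also had the smallest retina cores.

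Set against the rest, Dct in the epidermal zone went one way in the E14.5 areas and the other way in the E15.5 areas. Both E14.5 areas were lower there than in the rest (19.3 against 55.8 CPM and 24.6 against 28.0 CPM), and both E15.5 areas were higher (27.1 against 26.4 CPM and 33.6 against 18.5 CPM). The 19.3 CPM rested on 7 UMIs alone, and 27.1 and 26.4 CPM are close. The level in the rest, which held the spots led by forebrain genes, differed between areas too. The test of that difference gave 1.08 ± 0.43 on the log2 scale (edgeR, unadjusted p = 0.0373, Benjamini-Hochberg adjusted p = 0.762) and did not pass.

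Barcodes off tissue were used in no comparison and held UMIs of the 8 genes. There were 116 in 8 barcodes of the E14.5 area of replicates 2 to 4, or 554 CPM, and 192 in 11 barcodes of the E15.5 area of replicates 2 to 4, or 544 CPM. Of these barcodes 7 of 8 and 11 of 11 touched a tissue spot, and 2 and 3 lay within 2 spacings of a retina core.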

How the results depend on the processing

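All 8 genes stayed higher in the eye zone than in the rest under every alternative that tested all 8 except where more than a log2 change of 1 was asked, which called 7. With at least 10 counts asked of every sum, Pmel alone could be tested and 1 gene was called in each of the 3 zone contrasts. In the epidermal zone 1 gene, Tyr, was called when more than a log2 change of 1 was asked, and Mitf was lost at 3000 CPM. Among genes that did not pass, Dct in the epidermal zone turned to 0.39 with sections as samples and 0.15 at 3000 CPM, and was called lower (-0.77) at 300 CPM. Without E14.5 replicate 1, E14.5 replicates 2 to 4, E15.5 replicate 1 or E15.5 replicates 2 to 4 it was 0.26, 0.02, -0.07 and -0.36. Mlana there turned to -0.81 at 300 CPM, -0.15 at 3000 CPM and -0.03 with spots within 5 spacings of the retina left out. Over whole sections the stage difference, with areas left out in the same order, was -0.01, 0.02, 0.03 and -0.01 for Dct, -0.04, 0.65, 0.47 and -0.05 for Mlana, -0.15, 1.39, 0.63 and 0.08 for Oca2 and -0.25, 0.47, 0.16 and -0.03 for Pmel, and it was -0.01 for Dct by DESeq2. Left-out areas ranged from 8 to 8 genes called for the eye zone, 4 to 5 for the epidermal zone, 7 to 8 between both and 0 to 0 for either stage test. The causes were not tested.

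The replicate number as a block called 0 of the 8 genes in either stage test. Over all genes it called 0 in whole sections and 127 in the eye zone against 0 without it. The replicate 1 areas deviated together (correlation 0.246 over 15609 genes), and areas of the same number also share the Space Ranger version and the number of sections, but the labels name no shared litter, day or batch. Counts over all genes moved by more than 1.5 times in many alternatives. For the eye zone against the rest (771 higher, 401 lower, 7.97%) they were 210 and 26 without the area block, 959 and 871 by DESeq2, 222 and 104 with at least 10 counts in every sum, 125 and 3 when more than a log2 change of 1 was asked, 390 and 103 at a retina threshold of 50 CPM and 1309 and 1351 at 1000 CPM. Without E14.5 replicate 1 they were 482 and 243, without E14.5 replicates 2 to 4 361 and 107, and without E15.5 replicate 1 256 and 41, or 2.09% of genes. The epidermal zone had 2281 higher and 2966 lower genes than the rest without the block (4196 and 4556 with it), 2446 and 2332 with at least 10 counts and 565 and 986 past a log2 change of 1. The eye zone had 2458 higher and 1622 lower than the epidermal zone without the block (3950 and 3525 with it), 2517 and 2221 without E15.5 replicate 1, 1767 and 1932 with at least 10 counts and 1076 and 501 past a log2 change of 1.

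At 2 spacings Pmel was 11.1% of its level in retina spots of 100 CPM and 35.1% for the core of 1000 CPM, chosen after the data had been seen. Of eye zone spots 86.5% had a UMI of Pmel, which fell to 50.1% and 20.4% when spots were thinned to 5000 and 1000 UMIs. Depth limits the epidermal zone of E14.5 replicate 1 most, with 363105 UMIs.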
